A study of Mus musculus with 4 samples.

Results

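The cells described here are the late immature olfactory sensory neurons (OSNs) that the depositors' cell table labels iOSN2. Membership followed that label alone and no expression cut was added. It held 1006 of the 15859 retained cells of the main olfactory epithelium (MOE), with 282, 259, 199 and 266 cells in mice 1 to 4. They made up 6.40% ± 0.54 (SD, n = 4 mice) of the retained cells. The neighbouring labels served for comparison: the 866 cells called iOSN1 (earlier immature neurons) and the 10519 called mOSN (mature neurons).

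Olfactory sensory neurons are replaced throughout life from basal cells of the epithelium. A newborn neuron grows an axon to the olfactory bulb, chooses 1 odorant receptor (OR) gene from a very large family, silences the others, and then builds the cilia and the cyclic AMP cascade with which it detects odorants. The growth-associated protein Gap43 and the microtubule regulator Stmn2 are classical marks of the growing stage, and the olfactory marker protein Omp is the classical mark of the mature one.

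The tissue came from 4 male C57BL/6 mice of 8 weeks that received no treatment, with 1 droplet 3′ single-cell library per mouse and all mice in 1 group. Live nucleated cells were sorted on Hoechst and DRAQ7 staining before loading, so shares of cell types follow that sort and the dissociation. Levels are given as UMIs (unique molecular identifiers, counted transcripts) per 10000 UMIs of the summed cells of a mouse, as mean ± SD over the 4 mice. The iOSN2 sums held between 1616035 and 2427805 UMIs per mouse. The deposited labels were drawn by clustering these same cells on these same counts. Differences between iOSN2 and its neighbours are therefore description. They are given as levels, log2 fold changes ± SE, calls and the number of mice that agree, and no p is printed for them. An exact two-sided permutation test over 4 mice cannot give a p below 0.125 in any case. A gene is called where the edgeR fit over all genes gave a Benjamini-Hochberg adjusted p under 0.05. Between iOSN2 and its neighbours a call is only a cut for listing genes, and is no test of the labels. Within iOSN2, cells were grouped by the receptor they expressed, with the side or subset of that receptor taken from mature neurons of the other mice, and there the tests are given.

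The 3 marker genes placed these cells between the neighbours in all 4 mice. Gap43 (chromosome 16, 42248442 to 42340651 on GRCm38, minus strand) stood at 8.32, 9.54, 8.18 and 8.95 UMIs per 10000 in iOSN2 of mice 1 to 4. Its mean was 32.3 in iOSN1 and 0.176 in mOSN, a log2 difference of -1.77 ± 0.05 from iOSN1 and 5.59 ± 0.07 from mOSN. Stmn2 (chromosome 3, 8509360 to 8561606, plus strand) stood at 17.5, 16.3, 14.8 and 17.1, against 41.1 in iOSN1 and 3.72 in mOSN. Omp (chromosome 7, 98143359 to 98145502, minus strand) stood at 43.9, 49.5, 48.6 and 47.3, against 5.78 in iOSN1 and 72.1 in mOSN. For each of the 3 genes the iOSN2 values lay apart from those of both neighbours in every mouse, and they varied little between mice.

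Gap43 and Omp were found together in single cells. Cells with at least 3000 UMIs were thinned to that number, and cells with fewer were left out. After that, 71.0% ± 3.6 of iOSN2 cells held a UMI of both Gap43 and Omp, against 40.1% ± 2.2 of iOSN1 and 3.61% ± 0.64 of mOSN cells. In sustentacular cells, the supporting epithelial cells that should lack both, that share was 0.60%, and without thinning the iOSN2 share was 84.2%. Omp alone is a poor background gene in these libraries, since 12.5% of thinned Mv2 cells, a microvillar type, also held an Omp UMI. Gap43 was uneven among iOSN2 cells, with a 10th percentile of 0, a median of 5.62 and a 90th percentile of 20.9 UMIs per 10000 averaged over mice. Omp ran from 25.4 through 47.5 to 71.6 at the same percentiles.

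Markers of other cell types were at or near 0. The precursor gene Neurog1 had no UMI in iOSN2, and the summed precursor list, nearly all of it Sox11, stood at 1.76 against 18.3 in iOSN1. The 5 sustentacular markers summed to between 0.040 and 0.11 UMIs per 10000, with Aldh1a7 at 0. The 7 microvillar markers summed to between 0.46 and 0.66, against a mean of 199 in Mv2 cells. Chat and Moxd2 were at 0 in Mv2 cells as well as in iOSN2, so those genes do not separate the types. Gland, immune, glial, horizontal basal and blood lists each stayed below 0.86 in every mouse, with Muc5b, Bpifb9b, Sox10 and Frzb at 0.

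**Figure D1:**
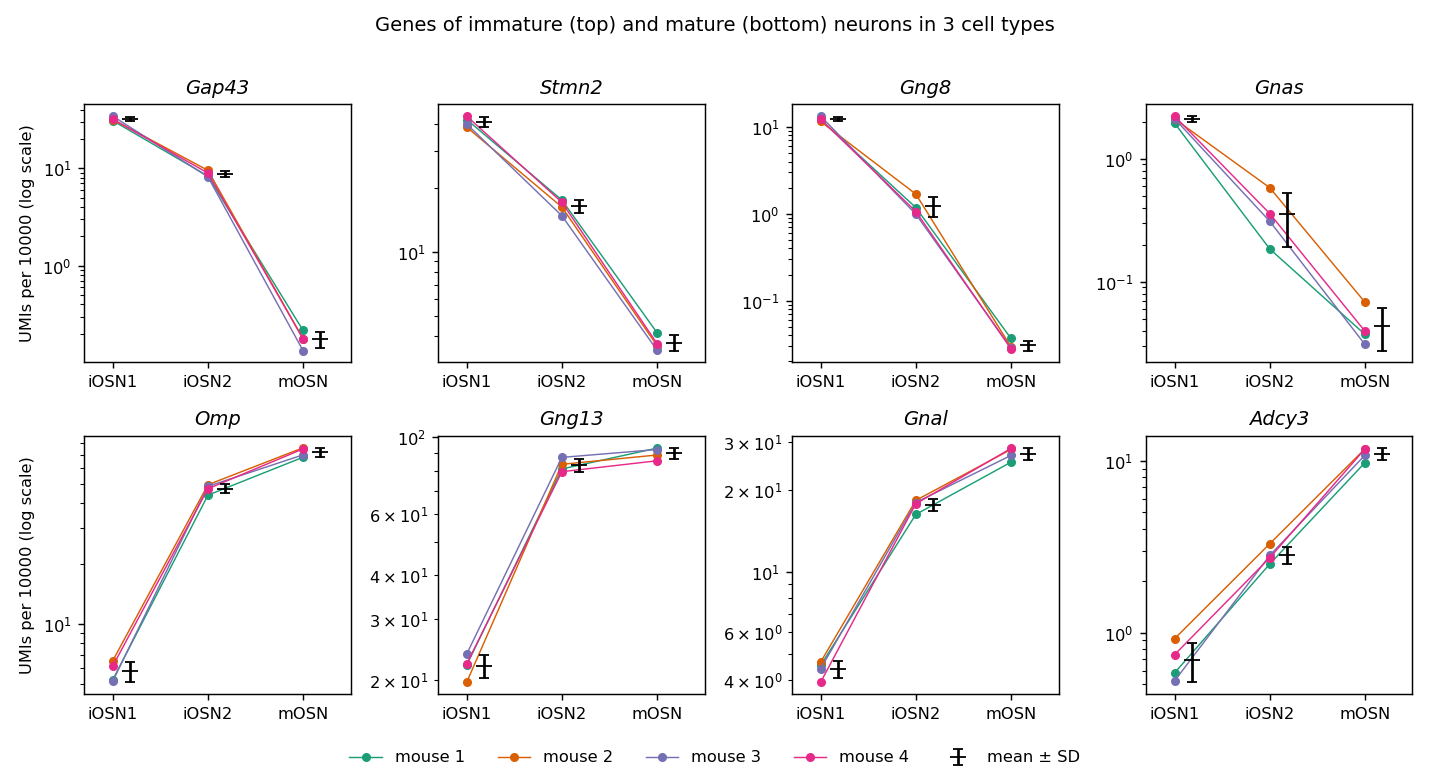
UMIs per 10000 (log axis) of 8 genes in iOSN1, iOSN2 and mOSN cells, with 1 point per mouse and bars for the mean ± SD of the 4 mice. Gap43 goes from 32.3 through 8.75 to 0.176, and Omp from 5.78 through 47.4 to 72.1 along the 3 labels.

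The iOSN2 label gathered cells from 2 sources. A first clustering, made by the depositors before low-quality cells were removed, had placed 765 of these cells with developing and 241 with mature OSNs (between 22.8% and 26.2% of the iOSN2 cells of a mouse in the latter). In the 241, Gap43 stood at 1.95 against 10.7 in the others, Gng8 at 0.068 against 1.57, Calb2 at 6.00 against 25.8, and the calcium-binding protein gene S100a5 at 358 against 99.7. Omp stood at 59.5 against 43.8, and Adcy3 at 4.96 against 2.22. Stmn4 was close in both, at 14.8 and 13.2. These values are description, since the first clustering read the same genes. Tests within iOSN2 were repeated without the 241 cells. Where the call of a gene given by name was then lost, this is given with the results, unless stated otherwise there.

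The median depth of an iOSN2 cell was 7636 ± 1763 UMIs (between 5792 in mouse 4 and 9807 in mouse 3), more than mOSN cells (5147 ± 1182) in 4 of 4 mice and more than iOSN1 cells (7129 ± 1636) in 4 of 4. The median mitochondrial share was 0.58% ± 0.11, lower than the 1.18% of mOSN in 4 of 4 mice. No iOSN2 barcode sequence recurred in the iOSN2 cells of another library, and 7 recurred elsewhere in another library.

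Of 10865 genes tested, with receptor genes left out, 59.4% were called between iOSN2 and iOSN1 (3317, or 30.5%, higher and 3133, or 28.8%, lower in iOSN2) and 49.6% between iOSN2 and mOSN (2763, or 25.4%, higher and 2626, or 24.2%, lower). Against the midpoint of both neighbours on the log2 scale 41.3% were called, 25.0% higher and 16.3% lower. With so many genes called, the counts of list members given below are read only as description, beside these shares over all genes against the same neighbour. The TMM scaling moved every log2 difference from iOSN1 by 0.12 relative to scaling by library size, and 1 called gene changed sign between them. By 1 log2 unit or more, 1197 genes were higher and 956 lower than in iOSN1, whereas 661 were higher and 253 lower than in mOSN.

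The odorant transduction genes were the group that stood highest over iOSN1. Of 20 members, 18 were called higher in iOSN2 than in iOSN1 and 2 lower, with a median log2 difference of 1.76 beside -0.02 over all genes. Against mOSN, 17 were lower and 2 higher, with a median of -0.65 beside -0.01 over all genes. Gnal, the stimulatory G protein alpha subunit of olfactory cilia, stood at 16.3, 18.3, 18 and 17.8 in the 4 mice, against 4.39 in iOSN1 and 27.2 in mOSN. Gng13, the gamma subunit paired with it, stood at 80.8, 83.4, 87.3 and 79.4, against 21.9 and 89.7, so it differed from mOSN by only -0.14 ± 0.05 log2. Stoml3, a membrane protein of olfactory cilia, went from 6.64 through 55.4 ± 1.1 to 83.1.

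Adcy3, the adenylyl cyclase that makes the second messenger, was later than these. It stood at 2.5, 3.29, 2.81 and 2.72 in the 4 mice, against 0.69 in iOSN1 and 11 in mOSN, a log2 difference of 2.16 ± 0.08 and -1.97 ± 0.05. The channel subunit Cnga2 went from 1.56 through 4.65 to 7.24, and the sodium-calcium exchanger Slc8a1 from 0.132 through 1.16 to 2.06. A pair of members ran the other way along the labels. Gnas, the widely expressed stimulatory alpha subunit, went from 2.10 through 0.36 to 0.044, and Rgs2, a regulator of G protein signalling, was likewise lower than in iOSN1 and higher than in mOSN. Gng8, a gamma subunit of immature neurons kept here in the growth cone list, stood at 1.18, 1.69, 0.995 and 1.06 against 12.3 in iOSN1 and 0.031 in mOSN.

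Genes of growth cones and the growing cytoskeleton formed the opposite group. Of 23 members tested, 21 were called lower than in iOSN1, and all 23 were called higher than in mOSN, with medians of -1.62 and 2.12 log2. The tubulin-binding Dpysl3 went from 10.4 through 1.26 to 0.099, and the membrane-associated Marcksl1 from 5.62 through 1.68 to 0.078. The 2 members higher in iOSN2 than in iOSN1 were Stmn4, described below, and Tmsb4x, an actin-binding thymosin that stood at 152 against 78.2 and 129.

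Precursor genes were lower still. Of 21 members only 7 had enough counts to be tested, with 5 called lower than in iOSN1 and Pcna called higher. Against mOSN 6 were called higher and 1 lower. Sox11, a transcription factor of newborn neurons, went from 18.1 through 1.74 to 0.121, and Hes6 from 1.55 through 0.263 to 0.185. Ezh2, the methyltransferase of the Polycomb repressor, stood at 1.04, 0.355 and 0.158. Tex15 stood at 3.27 in iOSN1 and at 0.033 in iOSN2, where mouse 2 alone gave 0.12.

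Factors linked to receptor choice were mostly lower in iOSN2 than in iOSN1. Of 21 members tested, 14 were called lower and 4 higher, and against mOSN 11 were lower and 1 higher. Ldb1, a cofactor of Lhx2 at receptor enhancers, stood at 0.409 against 1.10 in iOSN1 and 0.436 in mOSN, and Emx2 at 1.02 against 2.27 and 0.930. The demethylase Kdm1a stood at 0.693 against 1.63 and 0.528. Lhx2 and Ebf1, homeodomain and early B cell factor proteins of the enhancers, were lower in iOSN2 than in both neighbours, at 4.30 against 7.42 and 4.89, and at 10.9 against 21.4 and 12.4. The 4 called higher than iOSN1 were Ebf4, Reep1 and the transporting proteins Rtp1 and Rtp2, which bring receptors to the cell surface. Rtp1 stood at 3.14 ± 0.50 against 1.49 and 4.10, and Rtp2 at 3.42 against 1.98 and 4.23.

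The cilia list had 26 members, of which 21 were called higher than in iOSN1 and 5 were not called, with a median of 0.59 log2. Against mOSN 9 were called higher and 9 lower, beside 25.4% and 24.2% over all genes. The tubulin Tubb4b stood at 21.5 ± 0.9 against 12.1 and 19.2, and the transport subunit Ift27 at 2.15 against 1.38 and 1.66, both above each neighbour. The Bardet-Biedl subunit Ttc8 stood at 1.08 against 0.625 and 1.24.

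Axon guidance and sorting genes were called in both directions, as were all genes tested. Of 29 tested, 13 were called higher and 12 lower than in iOSN1, beside 30.5% and 28.8% over all genes. Against mOSN 12 were called higher and 11 lower, beside 25.4% and 24.2%. The adhesion gene Kirrel2 went from 0.763 through 5.19 ± 0.12 to 6.54, the ephrin receptor Epha5 from 0.489 through 4.19 to 5.66, and the semaphorin Sema7a from 0.183 through 0.942 to 1.47. The semaphorin receptor Nrp1 ran the other way, from 1.27 through 0.472 to 0.359. Kirrel3 was called above both neighbours, at 0.594 against 0.210 and 0.466.

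Of 20 presynaptic genes tested, 16 were called higher and 3 lower than in iOSN1. Against mOSN 3 were called higher and 8 lower, and 9 were not called. The glutamate transporter Slc17a6 stood at 2.28 against 0.334 and 2.85, the calcium sensor Syt1 at 4.27 against 1.89 and 5.64, and the vesicle protein Syp at 2.32 against 1.01 and 3.07. Among 16 excitability genes, 10 were called higher and 2 lower than in iOSN1, beside 30.5% and 28.8% over all genes. Against mOSN 5 were called higher and 8 lower. Hcn2, a pacemaker channel, stood at 0.675 against 0.166 and 1.23. The pump subunit Atp1b1 stood at 18.4 against 5.52 and 19.2, which left -0.08 ± 0.04 log2 to mOSN, not called.

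Of 20 metabolic genes tested, 9 were called higher and 11 lower than in iOSN1, beside 30.5% and 28.8% over all genes. Against mOSN 9 were called higher and 3 lower, beside 25.4% and 24.2%. The acyl-CoA synthetase Acsl6 stood at 3.08 against 1.33 and 4.40 and the glycolytic enzyme Eno1 at 4.09 against 2.11 and 4.15. The lipid carrier Fabp5 went from 4.81 through 0.436 to 0.023. Of 14 identity and splicing factors, 10 were called lower and 3 higher than in iOSN1, and 5 lower and 2 higher than in mOSN. Among those lower than in iOSN1 were the zinc finger repressor Insm1 (2.07, 0.773 and 0.056) and Dlx5 (0.607, 0.071 and 0.038). Celf4, an RNA-binding protein, was higher than in iOSN1, at 2.22 against 0.824, and stood at 2.51 in mOSN.

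The genes most different from iOSN1 under the naming rule added little to these groups. Those higher in iOSN2 by the most were S100a5 (7.31, 157 and 240 along the labels), Nrn1l (0.693, 7.87 and 12.8), Umodl1 (0.389, 4.33 and 10.6), Ccdc33, Mfge8, Car2, Fxyd2 and Avp. Avp, the vasopressin precursor, was uneven among mice, at 1.97, 3.06, 0.399 and 0.217 in iOSN2. Those lower by the most were Crabp1, a retinoic acid binding protein at 9.93 in iOSN1 and 0.078 in iOSN2, Tex15, Mex3a, Nhlh1, Rnf144a, the intermediate filament Vim (14.2 against 1.09), Qdpr and Fabp5.

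Against mOSN, the genes lowest in iOSN2 were Dlg2 (0.988 against 4.25), Adcy3, Cd55 (0.538 against 2.07), the glutamate transporter Slc1a2 (0.752 against 2.79), the motor protein Myo6 (2.93 against 10.5), Ifit1, Scn4b and Pth2. Beside Gap43 and Gng8, the highest were Vim, Marcksl1, Ly6h (2.40 against 0.128), Sox11, Dpysl3 and Fxyd2.

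Some genes peaked at this stage instead of lying between the neighbours. In 857 genes, 7.89% of those tested, iOSN2 was above both neighbours in 4 of 4 mice, and 632 of these were also called in both comparisons. For 671 genes, 6.18%, iOSN2 was below both in 4 of 4, with 377 called in both. Only 46 genes were above both by 1 log2 unit or more, and 19 below both by that much. Over a wider count, 1251 genes were called between the neighbours with mOSN highest and 1205 with iOSN1 highest.

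Among the 10 genes named above both neighbours, the neuronal stathmin Stmn4 had close values in the 4 mice. It stood at 13.4, 13.5, 13.6 and 13.6 in iOSN2 of the 4 mice, against 3.84 in iOSN1 and 6.04 in mOSN (1.94 ± 0.05 and 1.15 ± 0.04 log2). Ptn, the secreted growth factor pleiotrophin, stood at 5.78, 5.52, 5.79 and 5.25, against 1.61 and 2.55. Mfge8, a secreted protein that tags cells for engulfment, stood at 2.90 ± 0.41 against 0.274 and 1.11. The small GTPase Rnd2 stood at 2.32 against 0.956 and 0.689, Ccdc28b at 3.20 against 1.25 and 1.38, and the dynein light chain Dynlt3 at 2.82 against 1.72 and 1.52. Slc22a17 (2.55 against 0.914 and 1.19) and the lectin Mbl2 (1.18 against 0.510 and 0.336) completed the named genes for which all 4 mice gave similar values.

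The remaining named genes above both neighbours, Fxyd2 and Car2, were carried by few cells. Fxyd2, a regulator of the sodium pump, stood at 2.89, 2.03, 1.26 and 0.458, and Car2, a carbonic anhydrase, at 1.78, 4.19, 2.90 and 3.10. Of the Car2 UMIs in iOSN2, 75.8% came from 7 cells with a UMI of Gucy2d, which encodes a guanylyl cyclase known from a class of olfactory neurons that use no odorant receptor, and 49.5% of the Fxyd2 UMIs did. Without those cells Car2 stood at 0.709 ± 0.068, which is 0.52 ± 0.17 log2 below mOSN. Fxyd2 then stood at 2.13, 0.884, 0.016 and 0.149 in mice 1 to 4. It was still called above both neighbours, by 3.90 ± 0.44 log2 over iOSN1 and 2.49 ± 0.26 over mOSN.

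The 10 named genes below both neighbours were less displaced. Prrc2b stood at 3.03 ± 0.39 against 5.23 in iOSN1 and 5.27 in mOSN, the metallothionein Mt2 at 2.03 against 3.04 and 3.28, and the splicing factor Hnrnph1 at 2.00 against 2.90 and 2.92. The others were Zmynd8, Ncapg2, Hdgf, Eif4e3, Ncoa1, Rbm15b and Hspa9, all within 0.8 log2 of either neighbour.

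**Figure D2:**
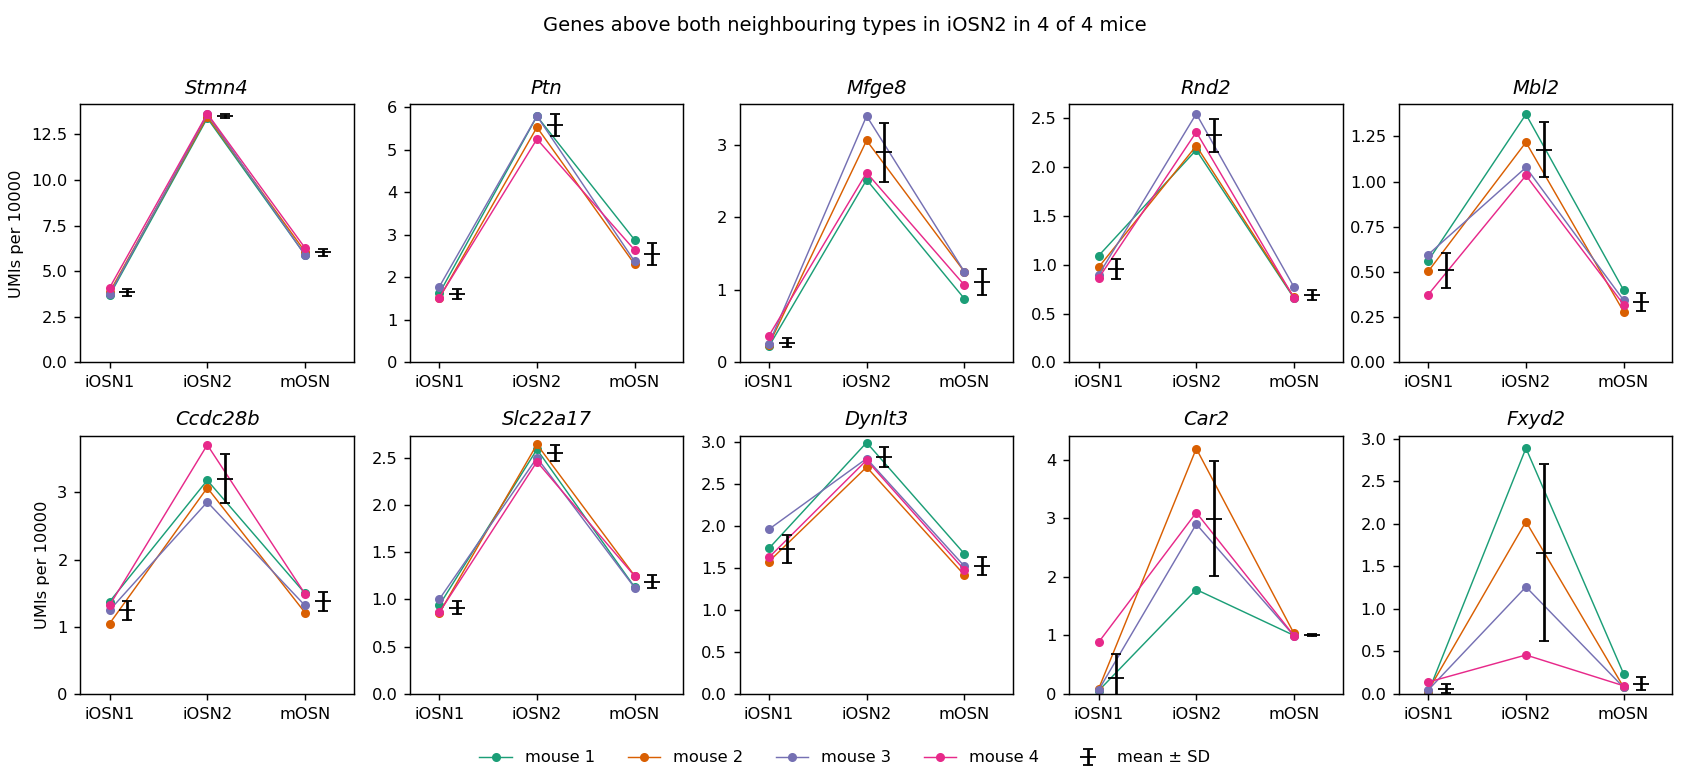
UMIs per 10000 (linear axis) of the 10 named genes above both neighbours, with 1 point per mouse for iOSN1, iOSN2 and mOSN and the mean ± SD over 4 mice. The Stmn4 points of iOSN2 lie between 13.4 and 13.6, whereas those of Car2 and Fxyd2 spread widely.

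Receptor transcripts per 10000 UMIs lay between the 2 neighbours, nearer to the mature level but below it in every mouse. Summed OR and trace amine receptor UMIs stood at 73.7, 75.7, 77.0 and 78.1 per 10000 in iOSN2 (76.2 ± 1.9), against 39.0 ± 7.6 in iOSN1 and 91.6 ± 1.5 in mOSN, with no overlap between the labels. In Mv2 cells the same sum was 1.12. The median cell gave its highest receptor 63.5 ± 3.8 UMIs per 10000, against 22.1 in iOSN1 and 76.0 in mOSN.

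A receptor was counted as expressed above a limit of 8.28 UMIs per 10000, set from the highest receptor of each mature neuron. Exactly 1 receptor passed it in 89.0%, 86.5%, 92.5% and 90.2% of iOSN2 cells of mice 1 to 4. The mean was 61.6% ± 4.6 in iOSN1 and 93.1% ± 0.3 in mOSN, and iOSN2 lay below mOSN in 4 of 4 mice. No receptor passed in 3.88% ± 1.20 of iOSN2 cells and 3.67% ± 0.49 of mOSN cells, a difference within the spread between mice. At least 2 passed in 6.58% ± 3.61 of iOSN2 against 3.24% ± 0.60 of mOSN cells, higher in 3 of 4 mice. The 69 iOSN2 cells with at least 2 had a median depth of 11800 UMIs, against 7182 in those with 1. Without the cells of highest doublet score the shares were 6.34% and 3.11%, and the part of depth and of remaining doublets in this difference was not tested.

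Counting any receptor UMI after thinning to 3000 UMIs gave another order for co-detection. At least 1 receptor was seen in 97.6% ± 0.4 of iOSN2 cells, 88.8% of iOSN1, 98.0% of mOSN and 17.0% of Mv2 cells. At least 2 were seen in 16.3%, 24.5%, 21.1% and 18.7% of iOSN2 cells of mice 1 to 4 (20.1% ± 3.5), against 31.6% ± 4.5 of iOSN1, 22.3% ± 2.0 of mOSN and 1.13% of Mv2 cells. The iOSN2 share was lower than that of iOSN1 in 4 of 4 mice, and lower than that of mOSN in 3 of 4, within the spread between mice. Without thinning it was 35.6% against 32.5% in mOSN, higher in 4 of 4 mice, so the order relative to mOSN was not the same at both depths. For a neuron that already holds 1 receptor, the nearer background is the 17.0% of Mv2 cells with at least 1, and not their 1.13%. The part of stray UMIs in these shares was not tested. Within a thinned cell, 96.8% ± 1.6 of the receptor UMIs of iOSN2 fell on the highest receptor, against 92.3% in iOSN1 and 98.1% in mOSN.

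**Figure D3:**
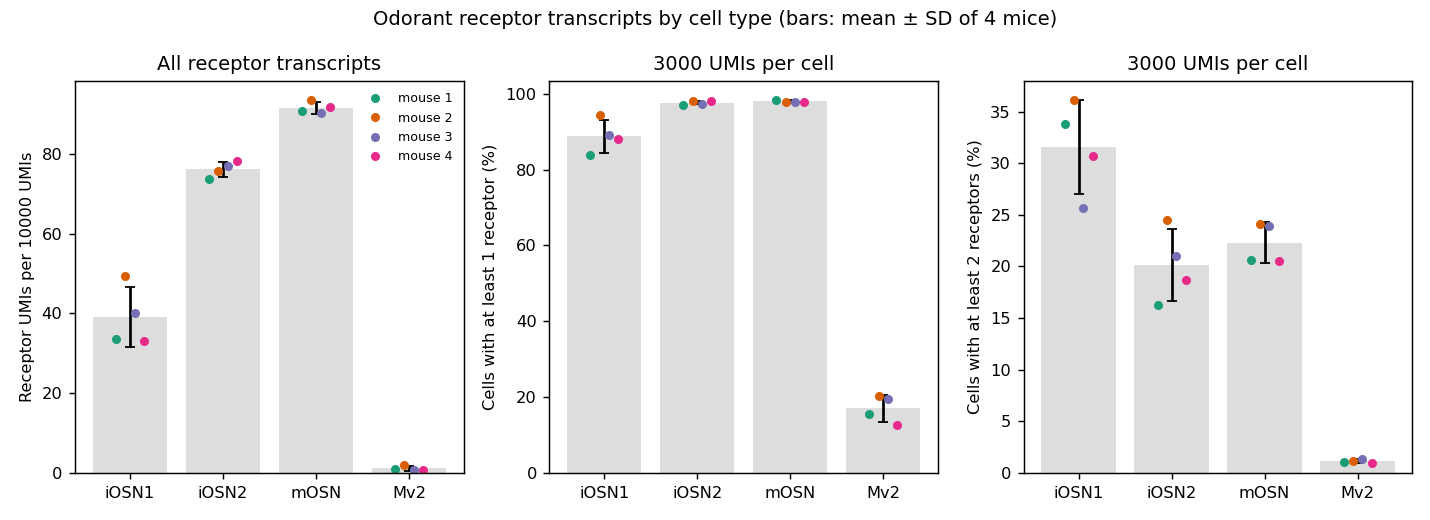
Receptor UMIs per 10000 (left) and, at 3000 UMIs per cell, the percent of cells with at least 1 (middle) and at least 2 (right) receptors with a UMI. Cells with fewer than 3000 UMIs are left out of the middle and right panels. Points are mice and bars the mean ± SD for iOSN1, iOSN2, mOSN and Mv2, and iOSN2 has 76.2 receptor UMIs between 39.0 in iOSN1 and 91.6 in mOSN.

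The 899 iOSN2 cells with exactly 1 receptor used 488 receptors, of which 466 were also found in mOSN cells. As many as 279 of them were seen in a single iOSN2 cell, 45 in 4 cells or more, and the most frequent in 12. Only 4 cells used a trace amine receptor. Class I receptors, the fish-like family of the dorsal epithelium, were used by 9.47% ± 3.31 of these cells, against 10.3% ± 5.9 in iOSN1 and 11.3% ± 2.3 in mOSN, a difference within the spread between mice.

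The nose is divided into dorsal and ventral zones, each with its own receptors. To ask whether the zone is already written in late immature neurons, each receptor was given the side, dorsal or ventral, that most mature neurons with it had in the deposited subclusters of the other 3 mice. Those subclusters were drawn over all 4 mice together, so the side of mature cells is not wholly independent of the mouse tested, but iOSN2 cells took no part in it. The authors named the subclusters dorsal or ventral by their expression of Nqo1 and Nfix. The mature gap of these 2 genes is therefore partly set by the label. This placed 180 iOSN2 cells on the dorsal side (63, 21, 51 and 45) and 601 on the ventral side (144, 182, 109 and 166), with 118 unplaced. The dorsal share was 23.5% ± 9.9 in iOSN2 and 30.3% ± 4.4 in mOSN, lower in 4 of 4 mice. The gap was -3.11, -16.7, -2.80 and -4.72 percentage points, with mouse 2 far from the rest, and its mean went from -6.84 to -3.54 without that mouse. In iOSN1 the dorsal share was 32.4%, 15.3%, 33.8% and 14.5%, also below the 33.5%, 27.1%, 34.7% and 26.0% of mOSN in each mouse.

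Within iOSN2, dorsal and ventral neurons differed in 434 of 10528 genes (4.12%; edgeR quasi-likelihood test with the mouse as a block), 177 (1.68%) higher and 257 (2.44%) lower on the dorsal side. Nqo1, a quinone reductase of the dorsal zone, stood at 15.6, 22.4, 21.6 and 14.8 in dorsal and 0.602, 0.394, 0.066 and 0.174 in ventral cells, a log2 difference of 5.89 ± 0.12 (adjusted p 3.50e-70). The groups did not overlap and lay far apart in each mouse. The acyl-CoA synthetase Acsm4 stood at 5.60 against 0.230 (4.55 ± 0.13), and Tafa4, Nr2f2, Papss2, H2-M10.6 and H2-M10.3 were dorsal at low levels, below 0.34 UMIs per 10000. Cpne2 had no ventral UMI and was at least 14.7-fold higher in dorsal cells, taking 3 UMIs as the limit of a count of 0.

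Beyond these zone genes, Cartpt, a neuropeptide precursor, stood at 28.6 in dorsal and 9.62 in ventral cells (1.54 ± 0.05). The axon guidance receptor Robo2, known from dorsal axons, stood at 1.72 against 0.894 (0.93 ± 0.13, adjusted p 1.1e-08), and Socs2, an inhibitor of cytokine signalling, at 3.37 against 1.19.

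On the ventral side were the nuclear factor I genes. Nfix stood at 3.30, 3.55, 3.57 and 3.88 in ventral cells and at 0.152, 1.33, 0.862 and 0.727 in dorsal cells (-2.5 ± 0.15), Nfib at 1.63 against 0.089 (-4.01 ± 0.23) and Nfia at 0.455 against 0.182 (-1.85 ± 0.32). The adhesion molecule Ncam2 (1.57 against 0.150) and the semaphorin receptor Nrp2 (1.17 against 0.106, -3.26 ± 0.26) were ventral as well, as was Cidea at 1.62 against 0.127. Mdga2, Cnr1, Mir99ahg, Nap1l5, Efcab1, Cygb, Pard3bos2 and Frem2 had no UMI in the dorsal cells and were at least 11.7-fold (Mdga2) to 2.43-fold (Frem2) lower there. Without the cells first clustered with mature OSNs, Frem2 had an adjusted p of 0.055, and Efcab1 did not pass the filter on low counts. Frem2 was not called whichever mouse was left out, Cygb without mouse 1, 3 or 4, Efcab1 and Pard3bos2 without mouse 1 or 3, and of the dorsal genes H2-M10.3 without mouse 1 and H2-M10.6 without mouse 3.

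Of the fixed lists, the zone and subset markers had 14 of 17 members called, 5 higher and 9 lower in dorsal cells, beside 4.12% over all genes. These markers are known from mature neurons, in part of this series, so their count is no independent evidence of direction. Of 27 guidance genes, 8 were lower and 1 higher, among them Kirrel2 (3.33 against 6.04, -0.86 ± 0.09), Epha5 (3.09 against 4.60) and Sema7a (0.562 against 1.12). Of these 9, Plxna3, Pcdh7 and Pcdh10 were not called without the cells first clustered with mature OSNs (adjusted p 0.20, 0.57 and 0.27). Of 23 growth cone genes, 7 were higher and 2 lower, with Gng8 at 1.21 against 0.622 and Stmn2 at 18.6 against 15.7. Gap43 was not called, at 8.96 against 8.16 (0.13 ± 0.06, adjusted p 0.29).

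Of 19 transduction genes, 4 were lower and 1 higher in dorsal cells, beside 2.44% lower and 1.68% higher over all genes. Omp stood at 41.4 against 49.9 (-0.26 ± 0.05, adjusted p 1.8e-05), Gng13 at 72.2 against 88.5 and Stoml3 at 50.4 against 58.8. Adcy3 (adjusted p 0.508) and Gnal (adjusted p 0.508) were not called. The share of cells first clustered with mature OSNs moved with the side, at 15.0% ± 3.3 of dorsal and 28.6% ± 2.8 of ventral cells, while the median depth was 7506 and 7589 UMIs. Without those cells, 331 genes were called between the sides, the adjusted p was 0.080 for Omp and 0.47 for Stoml3, and the call held for Gng13 (-0.26 ± 0.05, adjusted p 7.5e-05), Nqo1, the 3 nuclear factor I genes, Robo2 and Gng8. With no mouse block Omp, Gng13, Stoml3 and Stmn2 were not called (adjusted p 0.066, 0.055, 0.20 and 0.27), and neither was Gng8 by DESeq2 (0.065).

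Mature neurons gave 2888 calls of 10528 genes between the sides (27.4%), from many more cells. The interaction of stage and side tests whether the gap itself differed, and it did for 74 genes (0.703%), 26 (0.247%) with a more dorsal and 48 (0.456%) with a more ventral gap in iOSN2. The Nfix gap was smaller in iOSN2, -2.5 against -3.92 in mOSN (difference 1.42, adjusted p 4.56e-06). Socs2 also had a smaller gap, 1.62 against 3.10 (difference -1.48, adjusted p 9.42e-16), as had Calb2, 0.54 against 1.02 (adjusted p 2.38e-07). Since Nfix and Nqo1 named the mature sides, the interaction of these 2 genes cannot separate stage from that choice.

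For several genes the gap between the sides turned or was called at 1 stage only, and the difference between stages was itself called. Ptn stood at 5.80 in dorsal and 5.59 in ventral iOSN2 cells (0.08 ± 0.07, adjusted p 0.69), but at 4.47 and 1.77 in mOSN (interaction -1.28, adjusted p 2.24e-24). Selenom, a selenoprotein, stood at 3.79 and 4.75 in iOSN2 (-0.26 ± 0.08, adjusted p 0.0252, and 0.090 without the cells first clustered with mature OSNs) and at 2.72 and 1.53 in mOSN (interaction -1.12, adjusted p 1.55e-20). Ctsl, a lysosomal protease, stood at 0.876 and 0.850 in iOSN2 and at 0.172 and 0.445 in mOSN (interaction 1.41). Conversely, the microtubule-associated Tppp3 was dorsal in iOSN2 (1.30 against 0.552, 1.17 ± 0.17) and ventral in mOSN (-0.24 ± 0.06, interaction 1.42, adjusted p 2.72e-09). The intermediate filament Prph was dorsal in iOSN2 (1.53 ± 0.25) and not called in mOSN (-0.17 ± 0.27, interaction 1.70, adjusted p 0.00297).

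Gng8 (1.34), Nqo1 (0.71) and S100a5 (-0.54) also had a called interaction, with adjusted p of 0.0318, 0.0302 and 0.00177. Without the cells first clustered with mature OSNs those 3 had adjusted p of 0.092, 0.13 and 0.11, whereas Nfix, Socs2, Calb2, Ptn, Selenom, Ctsl, Tppp3 and Prph stayed called. Nfix had an adjusted p of 0.11 without mouse 3 (difference 1.02), Prph of 0.38 without mouse 1 (1.26) and S100a5 of 0.29 and 0.11 without mice 3 and 4, while Gng8 and Nqo1 were each lost without 3 of the 4 mice. Leaving out the mouse block reduced the interaction calls to 14 and the dorsal against ventral calls in iOSN2 to 250, and Calb2 and Prph then had interactions with adjusted p of 0.20 and 0.069.

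**Figure D4:**
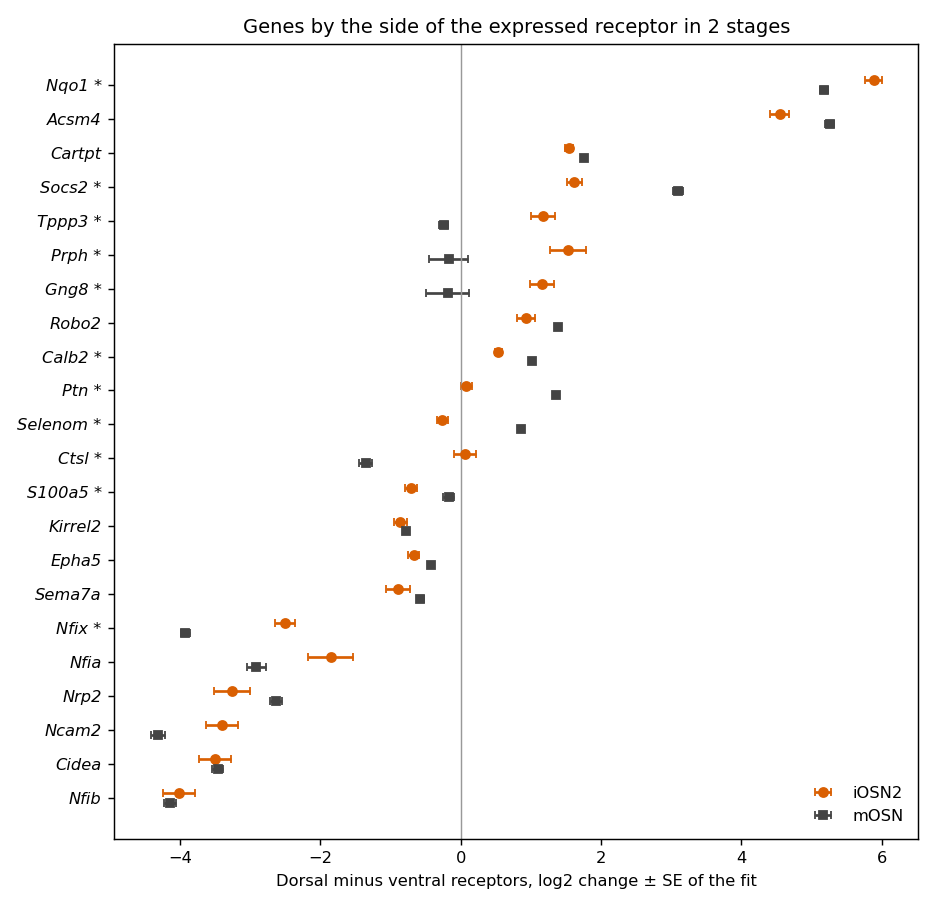
Dorsal minus ventral log2 difference ± SE (edgeR, 4 mice) of 22 genes in iOSN2 (circles) and mOSN (squares), with a star where the interaction of stage and side had an adjusted p under 0.05. Nqo1 lies at 5.89 and Nfib at -4.01 in iOSN2, and Ptn is near 0 in iOSN2 but at 1.36 in mOSN.

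Mature neurons also fall into subsets named for Cd36, Cd55, Calb2 and Dlg2, and each receptor was given the subset of most mature neurons with it in the other 3 mice. This asked whether late immature neurons with a receptor of a subset already show its genes. The subsets held 72 (Cd36), 30 (Cd55), 106 (Calb2) and 78 (Dlg2) iOSN2 cells, in all 4 mice. Against the other iOSN2 cells with a placed receptor, 282 of 7277 genes were called for Cd36 (3.88%; 1.68% higher and 2.20% lower), by edgeR with the mouse as a block. For Cd55 96 of 7184 were called (1.34%; 0.362% and 0.974%), for Calb2 131 of 7284 (1.80%; 0.522% and 1.28%) and for Dlg2 178 of 7269 (2.45%; 1.35% and 1.10%).

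The gene that names each subset was higher in its receptors' cells in all 4 cases. Cd36, a fatty acid receptor, stood at 1.59, 2.21, 1.85 and 1.15 in cells with Cd36 receptors and 0.070 in the others (4.65 ± 0.31, adjusted p 1.82e-21), while mature neurons of that subset stood at 8.60. Cd55, a complement inhibitor, stood at 3.88, 1.90, 7.04 and 0.649 against 0.365 (3.13 ± 0.27, adjusted p 3.56e-28), with 15.9 in the mature ones. The synaptic scaffold Dlg2 stood at 1.96, 1.92, 3.01 and 1.38 against 0.675 (1.74 ± 0.19), with 17.9 in the mature ones. For Cd36, Dlg2 and Cd55 the values in the other cells (at most 0.101, 0.750 and 0.452) lay below those of all 4 mice, and the Cd55 value nearest to them, in mouse 4, rested on 6 cells.

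Calb2, the calcium buffer calretinin, was different in kind, since it was high in iOSN2 as a whole. It stood at 47.5, 39.5, 36.6 and 38.0 in cells with Calb2 receptors and 18.7 in the others (1.08 ± 0.07, adjusted p 7.69e-15). In mOSN the levels were 26.9 and 1.10. Over all cells Calb2 stood at 23.6 in iOSN1, 21.4 in iOSN2 and 3.63 in mOSN, so most of its difference between iOSN2 and mOSN (2.54 ± 0.05) lay outside the subset that bears its name.

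S100a5, called in all 4 comparisons, was higher in 1 subset and lower in 3. It stood at 419, 433, 602 and 433 in cells with Dlg2 receptors against 114 in the others (2.11 ± 0.09). In cells with Calb2 receptors it stood at 15.8, 2.46, 2.71 and 2.26 against 173 (-5.18 ± 0.21), with mouse 1 above the rest. It was also lower in cells with Cd36 (63.6 against 160, -1.38 ± 0.07) and Cd55 (45.6 against 156, -1.95 ± 0.15) receptors. In mature neurons the values were 580 against 190 for Dlg2, 11.3 against 257 for Calb2, 155 against 238 for Cd55 and 291 against 229 for Cd36, where the order was the opposite of that in iOSN2. That difference between stages was not tested.

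Pcp4l1, a relative of the calmodulin regulator Pcp4, followed the same order, with log2 differences of 2.45 ± 0.12 for Dlg2, -2.41 ± 0.13 for Cd36, -3.41 ± 0.24 for Cd55 and -5.73 ± 0.19 for Calb2. The adhesion gene Kirrel2 had the same signs, at 0.88 ± 0.09 for Dlg2, -1.0 ± 0.13 for Cd36, -0.80 ± 0.18 for Cd55 and -2.39 ± 0.13 for Calb2. Kirrel3 went the other way, 1.15 ± 0.20 for Calb2 and -2.25 ± 0.42 for Dlg2.

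Cells with Cd36 receptors stood apart in further genes. The transcription factor Tshz1 stood at 6.33 against 0.644 (3.35 ± 0.15), and Klkb1, Dio2, Ly75, Cyp4v3, Dlx5 and Capn2 were higher by between 3.51 and 2.77 log2. Cd55 stood at 1.85 against 0.355 there (2.37 ± 0.22). Of 19 transduction genes tested, 10 were lower and 1 was higher in these cells, beside 2.20% lower and 1.68% higher over all genes. Among those lower were Adcy3 at 1.20 against 2.80 (-1.15 ± 0.18), Stoml3 at 32.1 against 59.6 (-0.92 ± 0.07), Cnga2 at 3.04 against 4.84, Gnal at 12.7 against 18.2 and Gng13 at 63.6 against 87.1. The stimulatory G protein gene Gnas was higher, at 0.522 against 0.218 (1.25 ± 0.37, adjusted p 0.0315), but had an adjusted p of 0.066 without the cells first clustered with mature OSNs. Avp, Rprm, Adam28 and Tuba4a had no UMI in them and were at least 31.1-, 25.1-, 16.3- and 13.2-fold lower, with Hectd2os, Galnt15 and Pdgfa at 0 as well. In the fit without the cells first clustered with mature OSNs, Ly75, Dlx5, Avp, Hectd2os and Pdgfa did not pass the filter on low counts, so their calls could not be repeated.

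In cells with Cd55 receptors, the gamma subunit Gng3 stood at 3.10 against 0.559 (2.25 ± 0.27), Tppp3 at 3.34 against 0.621, and Gng8 at 3.57 against 0.675 (1.80 ± 0.28). The cilia-associated Cfap52, Zpld2 and the protocadherin Pcdh11x were higher by 3.57, 3.45 and 2.46 log2. Stoml3 was lower (27.0 against 58.3). Of 23 growth cone genes tested, Gng8 alone was called higher, while Gap43, Stmn4 and Tmsb10 were called lower. How these 3 lower calls fared under other settings is not given here. Mboat1 and Igfbp7 were higher too, with adjusted p of 0.092 and 0.089 once the cells first clustered with mature OSNs were left out. Rprm, Kcnmb3, Tuba4a and Tmem64 had no UMI there and were at least 10.9-, 5.84-, 5.73- and 5.47-fold lower, with Hectd2os, Fibin, Etv4 and Rell1 at 0 as well. In the same fit Tuba4a, Fibin, Etv4 and Rell1 were not called (adjusted p 0.055, 0.19, 0.43 and 0.24), Rprm, Kcnmb3 and Tmem64 stayed called, and Cfap52 and Hectd2os did not pass the filter. These rest on 30 cells, and TMM scaling moved every log2 difference of this comparison by -0.13.

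In cells with Calb2 receptors the ephrin Efna5 stood at 1.23 against 0.417 (1.55 ± 0.20), the presynaptic scaffold Rims3 at 1.76 against 0.603, and Bmp6, a bone morphogenetic protein, at 0.452 against 0.110. Lsamp (2.84 ± 0.56), Prkd2 (1.16 ± 0.29) and the calcineurin subunit Ppp3r1 (1.14 ± 0.18) were higher as well, though Prkd2 had an adjusted p of 0.054 without the cells first clustered with mature OSNs. Omp stood at 49.0 against 48.3 (-0.01 ± 0.07, adjusted p 0.99). Avp, Etv4 and Rasgrp4 had no UMI and were at least 45.8-, 9.08- and 5.59-fold lower. In cells with Dlg2 receptors Rasgrp4 (2.55 ± 0.35), S100a6, Mmel1, S100a2, S100a3 and Igfbp5 were higher, and Calb2 was lower at 9.43 against 22.8 (-1.20 ± 0.10). Arpp21, Pcdh11x, Ttyh2, Kbtbd11, Mboat1 and Dnaic2 were lower by between 3.89 and 2.21 log2, and Cd36 stood at 0.021 against 0.239. Without the cells first clustered with mature OSNs, Igfbp5, Cd36, Ttyh2 and Mboat1 were no longer called, with adjusted p of 0.16, 0.12, 0.058 and 0.11. Low counts kept Lsamp, Avp and Rasgrp4 out of that fit for Calb2, and Mmel1, S100a2 and Kbtbd11 out of it for Dlg2.

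The share of cells first clustered with mature OSNs moved with the subset here too. It was 40.6% ± 14.9 for Dlg2 against 23.9% ± 2.5 in the other cells, and 7.70% ± 3.08 for Calb2 against 28.5% ± 1.5. For Cd36 it was 8.01% ± 9.27 against 27.3% ± 1.9. For Cd55, at 18.6% ± 22.0 against 25.9% ± 2.6, the gap lay within the spread between mice and turned in mouse 3 (50%). Without those cells the naming genes kept their calls (Cd36 4.49, Cd55 2.53, Calb2 0.77 and Dlg2 1.52 log2, with mouse 3 left out of the Cd55 fit because it kept fewer than 5 cells), as did S100a5, Pcp4l1 and, except for Cd55, Kirrel2 (adjusted p 0.085). Gap43, called in cells with Calb2 receptors (0.55 ± 0.08) and with Dlg2 receptors (-0.40 ± 0.10), then gave 0.27 (adjusted p 0.066) and -0.09 (adjusted p 0.88), and Adcy3 in cells with Dlg2 receptors went from 0.47 ± 0.13 to -0.03. Gap43 was also called lower in cells with Cd55 receptors, where its value in this fit is not given.

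The side moved with some subsets as well. A dorsal receptor was found in 33.0% ± 8.5 of cells with Cd36 receptors against 22.8% ± 10.2 of the others, higher in 4 of 4 mice. The share was 30.8% ± 24.1 against 23.5% ± 9.7 for Cd55, 25.4% ± 13.4 against 23.6% ± 10.2 for Calb2 and 30.4% ± 18.3 against 22.6% ± 9.3 for Dlg2, differences within the spread between mice. The dorsal marker Nqo1 stood at 7.06 against 4.19 for Cd36 (0.74 ± 0.12) and at 7.38 against 4.33 for Cd55 (0.60 ± 0.15). The ventral gene Nrp2 stood at 0.428 against 0.955 for Cd36 (-1.08 ± 0.28, adjusted p 0.0114). The part of the side in the subset differences was not tested.

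Several subset calls were lost in fits that left out 1 mouse, some of them whichever mouse it was. For Cd36, Dlx5 had an adjusted p of 0.11 without mouse 1, and Gnas one of between 0.082 and 0.20 whichever mouse was left out. For Cd55, Etv4 and Rell1 were not called whichever mouse was left out, Fibin without mouse 1, 2 or 3, Hectd2os without mouse 1 or 3, and Igfbp7 without mouse 1 or 2. Mboat1, Pcdh11x, Zpld2 and Kirrel2 were not called for Cd55 without mouse 1 (2.18, 1.72, 2.54 and -0.86 log2, with adjusted p of 0.064, 0.14, 0.21 and 0.065). For Calb2, Prkd2 lost the call without mouse 1, 2 or 3, Bmp6 and Lsamp without mouse 3 (adjusted p 0.065 and 0.15), and Rasgrp4 without mouse 2 (0.053).

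For Dlg2, Kbtbd11 was not called without mouse 1, 2 or 4, Mboat1 and Adcy3 without mouse 1, 2 or 3, Mmel1 and Gap43 without mouse 2, 3 or 4, and S100a2 without mouse 1, 3 or 4. Arpp21 and Cd36 lost the call without mouse 1 or 3, Dnaic2 without mouse 1 or 2, Ttyh2 without mouse 2, and Igfbp5, S100a3 and Kirrel3 without mouse 3, each keeping its sign, with adjusted p over these genes of between 0.0535 and 0.57. By DESeq2, the genes above that were not called were Avp, Gnas and Pdgfa for Cd36, Etv4, Fibin, Gng8, Hectd2os, Igfbp7, Kirrel2 and Rell1 for Cd55, Prkd2 for Calb2, and Adcy3, Dnaic2, Gap43, Mmel1, Pcdh11x and Ttyh2 for Dlg2.

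**Figure D5:**
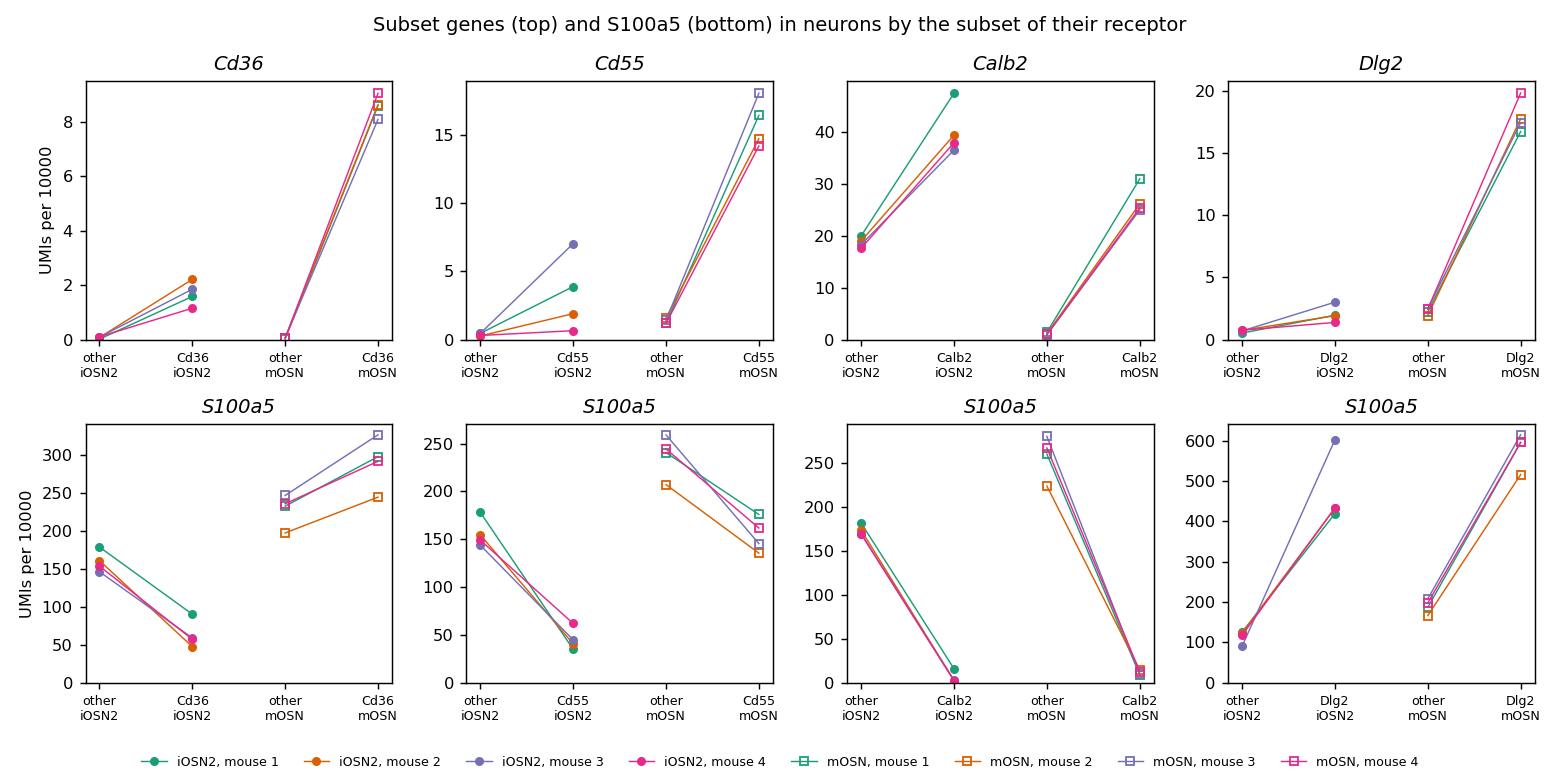
UMIs per 10000 of the gene that names each subset (top) and of S100a5 (bottom) in cells with receptors of that subset and in the others, in iOSN2 and mOSN, with 1 point per mouse and lines joining the points of a mouse. The mean of Cd36 over the mice is 1.70 against 0.070 in iOSN2 and 8.60 against 0.046 in mOSN.

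Finally, the 899 iOSN2 cells with exactly 1 receptor above the limit were compared with the 38 (11, 7, 11 and 9) that had none. By edgeR with the mouse as a block, 85 of 7622 genes differed (1.12%), 30 (0.394%) higher and 55 (0.722%) lower in cells with a receptor, where TMM moved every log2 difference by 0.13. Car2 stood at 0.722 in cells with a receptor and 56.8 in those without (-6.08 ± 0.14), and Resp18, Dkk3, Pax6, S100z and Dmrta2 were likewise near 0 in the former. Pde1a had no UMI in them and was at least 135-fold lower.

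Those differences came with a few cells. Among the 38 cells, 6 carried a Gucy2d UMI, in all 4 mice, with between 119 and 284 Car2 UMIs each, while no iOSN2 cell without Gucy2d had more than 6. The 6 cells had no UMI of Cnga2, Adcy3 or Pde2a and 1 of Cnga3. They held Omp at 20.3, Gng8 at 20.9 and Gap43 at 7.40 UMIs per 10000. A seventh iOSN2 cell with Gucy2d had 2 receptors above the limit. These 7 were 0.696% of iOSN2 cells, beside 1 of 10519 mOSN and 0 of 866 iOSN1 cells. By mouse the iOSN2 share was between 0.355% and 1.01%. The upper Wilson 95% limit of iOSN1 was between 1.58% and 2.32% by mouse, so these counts do not separate iOSN2 from iOSN1. A Gucy2d UMI was more frequent among the INP, the immediate neuronal precursors, at 23 of 284 cells (8.10%). The median depth was 8778 UMIs in the 6 cells, against 7182 in cells with 1 receptor.

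Without cells with a Gucy2d UMI, 20 genes were called between the groups. Of the 85 genes, 64 could be retested and 15 were called again, 1 of them (Fxyd2) in the other direction. S100a5 stayed higher in cells with a receptor, 165 against 92.0 with all cells (1.02 ± 0.12) and 1.37 without the Gucy2d cells (adjusted p 7.2e-15). Ptn stayed higher, at 5.88 against 2.30 (1.40 ± 0.19, and 1.09 without, adjusted p 7.99e-06), as did Nqo1 (1.18, and 0.87 without) and the detoxifying enzyme Glo1 (1.27, and 1.01 without). Rprm and Mslnl stayed higher (1.64 and 0.87 without), though Rprm was not called without mouse 1, 2 or 3 (adjusted p between 0.18 and 0.22), whereas Pcdh10, Exoc3 and Lrrc3b were not called without the Gucy2d cells (adjusted p 0.18, 0.051 and 0.16). Gng8 stayed lower (-2.86 ± 0.20, and -1.58 without). OR5BS1P, a receptor-like gene outside the receptor list used for the limit, stood at 0.121 in cells with a receptor and at 0, 1.16, 19.0 and 5.32 in those without (adjusted p 0.060 without mouse 3).

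The share of cells first clustered with mature OSNs was 25.2% ± 2.2 in cells with 1 receptor and 15.9% ± 11.9 in those with none, where it was 0% in mouse 1. Without those cells 101 of 6891 genes were called. Of the 85 genes, 83 could be retested and 74 were called again in the same direction, with S100a5 at 1.91 ± 0.19 (adjusted p 3.1e-16), and Exoc3 and Lrrc3b not called (adjusted p 0.073 and 0.13).

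OR5BS1P passed the receptor limit in 5 of the 38 cells, and in 44 of 384 mOSN cells without a receptor. That left 27 of the 38 iOSN2 cells with neither a listed receptor, a Gucy2d UMI nor OR5BS1P above the limit. In the 32 cells without receptor or Gucy2d, Cnga2 stood at 5.20, Adcy3 at 2.72 and Omp at 45.1 UMIs per 10000, at a median depth of 6804 UMIs. A receptor below the limit and no receptor cannot be told apart at this depth.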

How the data were processed

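Cells of the MOE of 4 male mice were sequenced with 10x 3′ chemistry, 1 library each. The deposited files hold UMI counts per gene and cell, which the authors made with Cell Ranger 6.0.1 on GRCm38, using an Ensembl annotation in which receptor 3′ ends had been redrawn. The authors removed cells with over 10% mitochondrial UMIs or under 1000 genes and clustered the rest with Seurat, so low-RNA cells are missing from every type. Cell labels were taken as deposited. A merged count table of the deposit was not used, since the matrices of each mouse hold counts with gene IDs. Gene positions came from the GENCODE annotation of GRCm38, which matched 55130 of 55511 features. Neither overlapping genes nor receptors with near-identical copies can be separated where reads are shared.

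Raw counts were summed per mouse and group of cells and tested with edgeR 4.0.16 in R 4.3.3 (TMM, filterByExpr, quasi-likelihood, mouse as a block, Benjamini-Hochberg at 0.05 over all genes tested). Receptor genes stayed in library sizes but were not tested. DESeq2 1.42.0 was an alternative. SEs are the log2 change divided by the root of the F statistic. The block was kept because the sums of a mouse share 1 animal and library. Deviations from group means of the same mouse correlated by between 0.20 and 0.49 (iOSN2 with iOSN1) and between 0.36 and 0.74 (iOSN2 with mOSN) over 2401 genes. A subset of receptors was tested where at least 5 cells were found in each of 3 or more mice. The receptor limit (8.28 UMIs per 10000) lies 3 scaled median absolute deviations below the median log value of the highest receptor of mature neurons, and it gave back all 9791 deposited receptor identities. Thinning drew 3000 UMIs per cell and left out cells with fewer. In mice 1 to 4 it kept 276, 245, 190 and 251 of the 282, 259, 199 and 266 iOSN2 cells. For mOSN it kept 2675, 1936, 1721 and 2615 of 2877, 2525, 1887 and 3230 cells. Scrublet found no threshold it could use (between 0.0351% and 0.616% of cells called per mouse), so the top 4% of its scores was left out as an alternative.

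Genes were named by rule: the 8 largest called changes in each direction, the same in 4 of 4 mice and at 1 UMI per 10000 or more for iOSN2 against each neighbour; the 10 genes highest and lowest relative to both; up to 4 genes per list; 18 genes always; and the 8 largest per direction within iOSN2. Genes named Gm or Rik were left out, and a few named genes are not reported here. Other list members were named after their values were seen. The members, gene lists and tests were chosen with earlier results of these data known. Intervals and limits cover counting error only.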

Additional observations from a re-analysis of the deposited data

Results flagged for a closer look

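For 182 iOSN2 values over the 4 mice, 11 had 1 mouse far from the other 3 by Dixon's criterion, and chance alone gives about 1 in 20. The outlying values were 99.6% for the share of thinned cells with Omp and, in UMIs per 10000, 0.040 for Nhlh1, 0.78 for Zmynd8, 0.18 for Cd36, 0.063 for Dlx5, 0.12 for Tex15, 0.84 for Ppp3r1, 0.078 for Mdga2, 0.41 for Prph, 3.80 for Mslnl and 2.66 for Syp. No explanation of them was tested.

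The other flagged values are differences between stages in the dorsal minus ventral gap, on the log2 scale as iOSN2 less mOSN, each tested as an interaction by edgeR. The positive ones were 2.84 for Galnt15, 1.74 for Gbe1, 1.70 for Prph, 1.42 for Nfix, 1.42 for Tppp3, 1.41 for Ctsl, 1.41 for Dclk1, 1.34 for Gng8 and 0.71 for Nqo1. The negative ones were -5.20 for Bglap3, -1.48 for Socs2, -1.46 for Tcaf1, -1.28 for S100a6, -1.28 for Ptn, -1.17 for Arhgef2, -1.12 for Selenom, -1.06 for Pir, -0.54 for S100a5, -0.48 for Calb2 and -0.25 for Stmn2. Without the cells first clustered with mature OSNs, Nqo1, S100a5, Gng8, Dclk1, S100a6 and Pir were no longer called, with adjusted p of 0.13, 0.11, 0.092, 0.071, 0.34 and 0.28. Of all 74 called interactions, 14 were called again with no mouse block and 33 with exactly 1 receptor at 3 or more UMIs. Without mouse 3 it was 34, and by DESeq2 45. For the flagged genes these losses are given only in part.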

How the results depend on the processing

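Leaving out Gucy2d cells or cells first clustered with mature OSNs, or those with 2 or more receptors above the limit, was chosen after seeing the data. Of the alternative values for named genes, 6831 kept direction and side of the threshold, 366 kept the direction and lost the call, 77 gained it and 15 changed sign. Leaving out 1 mouse gave ranges against mOSN of -0.72 to 0.69 (OR5BS1P), -0.41 to 0.43 (S100a6) and -0.13 to 3.45 (Tex15). The sign changes were: against iOSN1, Calb2 to 0.10 with no filter on low counts and 0.23 without cells first clustered with mature OSNs; against mOSN, Avp to -1.38, Hectd2os to -0.52, OR5BS1P to -0.59 and S100a6 to -0.93 without those cells, Car2 to -0.52 without Gucy2d cells, Klkb1 to 0.18 with equal cell numbers, OR5BS1P to -0.72 without mouse 3, S100a6 to -0.41 without mouse 1, and Tex15 to -0.13 without mouse 2 and -0.028 without the top Scrublet scores; for Dlg2 receptors, Adcy3 to -0.035 without cells first clustered with mature OSNs; and for 1 receptor against none, Car2 to 1.06 and Fxyd2 to 3.16 without Gucy2d cells. Thinning to 3000 UMIs lowered the calls against mOSN to 3298 and against the midpoint of both neighbours to 2769, from 4487 with all UMIs. Demanding exactly 1 receptor at 3 or more UMIs gave 271 calls between sides in iOSN2 and 38 interactions. With no replicate block, calls were 250 (sides in iOSN2), 1433 (sides in mOSN) and 14 (interaction), and the block moved no other count by over 1.5 times. DESeq2 gave 1891 calls between sides in mOSN and 109 (Cd36), 32 (Cd55), 52 (Calb2) and 48 (Dlg2) for the subsets. Without cells first clustered with mature OSNs, Cd55 gave 43 and Dlg2 112. For 1 receptor against none, no filter gave 238 and leaving out Gucy2d cells 20. Leaving out 1 mouse gave between 5728 and 5956 calls against iOSN1, 4735 and 4852 against mOSN, 3775 and 3948 against the midpoint, 262 (without mouse 3) and 345 between sides in iOSN2, 2321 and 2472 in mOSN, and 37 and 60 interactions (49, 37 and 40 without mice 2, 3 and 4). For the subsets it gave between 139 (without mouse 1) and 223 for Cd36, 34 (without mouse 1) and 87 for Cd55, 60 and 104 for Calb2 (69 and 60 without mice 2 and 3), and 69 and 171 for Dlg2 (111, 79 and 69 without mice 1, 2 and 3), and for 1 receptor against none 55 (without mouse 2 or 3) and 87. The share of iOSN2 cells with at least 2 receptors was 28.3% at 5000 UMIs, 35.6% unthinned and 7.49% where a receptor needed 2 UMIs, and with at least 1 it was 98.3%, 98.6% and 96.6%. Without 1 mouse these shares ran from 18.7% to 21.4% and from 97.5% to 97.8%. Keeping only cells with 2000 genes or more raised iOSN2 to 8.45% of cells. Where no construction of the alternative shows it, the cause was not tested. Depth limits the genes under about 0.1 UMI per 10000 and the subsets of few cells.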

Other observations

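The receptors of iOSN2 cells were set beside those of mature neurons, as values chosen after they were seen. For 391 receptors with at least 10 cells in iOSN2 and mOSN together, the median share of cells in iOSN2 was 6.25%, beside 8.41% over all cells with 1 receptor, and 129 receptors had no iOSN2 cell. In 4 receptors the share was over 40%. Olfr1196 had 11 iOSN2 and 6 mOSN cells (0, 5, 3 and 3 iOSN2 cells in mice 1 to 4), the highest share at 64.7%. Olfr1213 had 12 and 15 cells (2, 3, 3 and 4), Olfr5 had 6 and 8, and Olfr1193 had 5 and 7. Olfr1186, with too few cells for that list, had 5 iOSN2 cells in mice 2 and 3 and no mOSN cell. Olfr39, also with too few, had 5 iOSN2 and 3 mOSN cells (62.5%). Near-identical receptor copies could share reads here, so single receptors are uncertain.

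The cells with these receptors differed in S100a5 and Calb2, where the levels for Olfr39 are not given. Pooled over cells, S100a5 stood at 0.456 UMIs per 10000 in the iOSN2 cells of Olfr1196, 2.75 in those of Olfr1213 and 1.68 in those of Olfr1186, and at 31.0 for Olfr1193 and 247 for Olfr5. Calb2 stood at 36.6, 32.7, 34.3, 24.8 and 10.7 in the same order. The mOSN cells of Olfr1196 and Olfr1213 had S100a5 at 2.47 and 2.23, and Calb2 at 27.6 and 24.1. Omp was at 48.3 and 43.4 in the iOSN2 cells and at 97.2 and 88.4 in the mOSN cells of these 2 receptors. Each value comes from few cells and has no test.

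Ptn, high in iOSN2 as a whole, differed between the receptor subsets, a value chosen after it was seen. In the edgeR fits without the cells first clustered with mature OSNs, its log2 difference was -3.45 in cells with Cd36 receptors (adjusted p 5.43e-51) and -3.70 in cells with Cd55 receptors (adjusted p 1.63e-24). In cells with Calb2 and Dlg2 receptors it was 0.27 (adjusted p 0.243) and -0.39 (adjusted p 0.174).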
